A study of Mus musculus with 8 samples.

Results

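Described here are 115 noncoding RNA genes expressed in mouse liver, of 24197 genes listed in the deposited table. A gene was taken where all its RefSeq accessions were of the noncoding NR class and its FPKM averaged at least 2 over the 4 groups. FPKM divides the reads of a gene by its exon length and by the library total. Genes on the sex chromosomes, genes named as microRNAs, snoRNAs or scaRNAs, H19 and Serpina4-ps1 were left out. The minimum kept 115 of 2184 such genes, and 6813 listed genes of any kind reached the same level. The genes were thus chosen by their mean FPKM, and levels are given as a description without a test. A gene high in 1 group alone can pass such a mean. Just inside the minimum lay Gm17066 at 2.05, 2610001J05Rik at 2.06 and Rps4l at 2.08 FPKM, and just outside it 4931408D14Rik at 1.95, 9330162012Rik at 1.91 and Fam120aos at 1.90 FPKM.

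The study asked what the loss of STAT5a and STAT5b in hepatocytes does to the liver transcriptome of male and female mice. Knockout mice carried a floxed Stat5a-Stat5b locus on a mixed C57BL/6 x 129J background together with Cre under the albumin promoter from an FVB/N line, and controls were floxed mice of the same 8 to 12 weeks of age. Males and females of both genotypes made 4 groups with 2 libraries each, prepared from livers pooled in unstated number. The libraries were stranded and depleted of ribosomal RNA, so transcripts without a poly(A) tail were also measured. Albumin-Cre targets hepatocytes, and bulk liver does not show which other cells keep both genes.

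STAT5a and STAT5b are transcription factors that growth hormone activates in hepatocytes, and much of the difference between male and female liver is known to depend on them. Long noncoding RNAs (lncRNAs) are transcripts without a long reading frame, and many sit in the nucleus, where some hold nuclear bodies together or act on chromatin. Small structural RNAs form the core of enzymes such as RNase P, whereas transcribed pseudogenes are copies of protein-coding genes whose sequence can be too close to the parent for short reads to tell them apart.

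Library totals were 6192515 to 34651386, of which 2286080 to 11351111 reads fell in genes. The single libraries are not listed in the deposited table. They were recovered from the group means for all 115 genes, are known only as the deeper and the shallower library of a group, and are given in that order below. The 115 genes held 3.21% to 4.19% of the reads in genes. The median gene had 195 reads in a library, and the lowest value was 5 reads. After the shift shared by all genes of this level was taken out, the libraries of a group differed by a median factor of 1.10 to 1.18 over the 115 genes and of 1.09 to 1.14 over all genes of this level. Both targeted genes were lower in knockout livers. Stat5b measured 1.95 and 3.41 FPKM in male controls and 0.684 and 1.03 in male knockouts, and 3.88 and 2.90 in female controls against 1.77 and 1.11 in female knockouts. The authors' deposited table, which gives edgeR p-values adjusted by Benjamini-Hochberg over all listed genes, has Stat5b 2.97-fold lower in males (adjusted p = 3.1e-06) and 2.58-fold lower in females (adjusted p = 3.5e-06). The library titles carry a code of unstated meaning. No code is shared between control and knockout females, between male and female controls, or between male and female knockouts. In these comparisons the code cannot be told apart from genotype or sex.

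By the current RefSeq annotation, 58 of the 115 genes were lncRNAs, 39 pseudogenes and 8 small structural RNAs. Another 8 are now typed as protein coding, 1 was the 45S ribosomal RNA precursor Rn45s and 1, Gm17066, found no match. Levels were very uneven. Only 5 genes averaged above 100 FPKM, 29 lay between 10 and 100, and 81 were under 10. Of the 115 genes, 98 reached 2 FPKM in all 4 groups and 17 fell under it in at least 1 group.

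**Figure D1:**
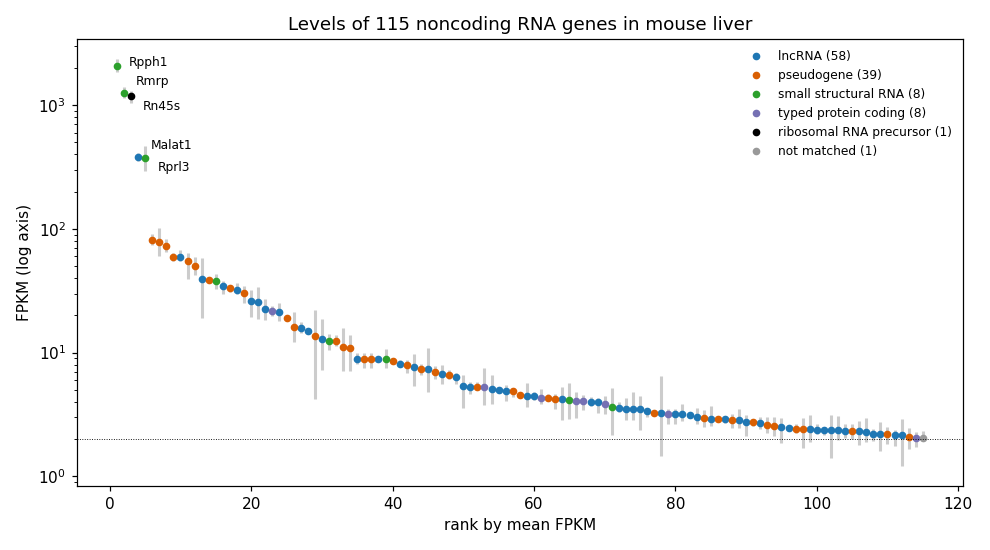
Mean FPKM over the 4 groups (log axis) of 115 noncoding RNA genes, ranked by that mean. Points are coloured by RefSeq class, grey bars run from the lowest to the highest group mean, and the dotted line is the minimum of 2 FPKM. Rpph1, Rmrp, Rn45s, Malat1 and Rprl3 lie above 100 FPKM, and the long bars belong mainly to genes described in the text, such as AW112010 and 9030619P08Rik.

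Few of these genes differed between genotypes. In males, the authors' deposited table calls 2 of the 115 at an adjusted p under 0.05, AW112010 higher and 1500017E21Rik lower, which is 1.74% of them against 4.45% of all genes of this level. Among the genes of this level 2.77% were called higher and 1.67% lower. In females it calls 6, AW112010 and Gm1821 higher and 1500017E21Rik, 1810008I18Rik, A330049N07Rik and 6430706D22Rik lower, which is 5.22% against 3.52% of all genes of this level, with 2.39% called higher and 1.13% lower. The shares of the noncoding genes lay below the background in males and above it in females, on 2 and 6 genes. At an unadjusted edgeR p under 0.05 the authors' deposited table holds 12 of the 115 genes in males, 3 higher and 9 lower, where genes of this level gave 6.15% higher and 4.98% lower. In females it holds 21, 6 higher and 15 lower, where 436 and 269 of the 6813 genes of this level were higher and lower (10.3% in all).

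Refits on the recovered libraries made fewer calls. Limma on log2(FPKM + 1) over 18002 genes called 0 of the 115 in either sex (background 0.411% in males and 0.044% in females), with 9 in males and 11 in females at an unadjusted p under 0.05, which 13.1% and 12.8% of genes of this level reached. Limma voom on the reads of 12978 genes called 1 in males, 1810008I18Rik, and 0 in females, with 13 and 16 at an unadjusted p under 0.05 (16.7% and 11.2% of genes of this level). Of genes of this level, voom called 2.01% in males and 0.561% in females. With 2 pools in a group, p-values measure only the spread between pools. An effect averaged over both sexes, added after the data were seen, was called by voom for 2 of the 115 genes, 1810008I18Rik lower and AW112010 higher, against 4.46% of all genes of this level, and by limma on log2(FPKM + 1) for 1810008I18Rik alone, against 0.91%.

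The promoters of the 4 called lncRNAs are shown because these carry most of the genotype differences and because STAT5 binds DNA at TTCNNNGAA. Each window is taken from RefSeq on GRCm38.p6 and runs from 250 bases before the annotated start to 50 bases after it, in the direction of transcription. Capitals mark the transcribed bases. The AW112010 window is chr19:11050517-11050816, minus strand. The first 1810008I18Rik window is chr7:65802787-65803086, plus strand, and the second is chr7:65803783-65804082, plus strand. The window of 1500017E21Rik, which RefSeq calls Hectd2os, is chr19:36689430-36689729, minus strand. The A330049N07Rik window is chr10:73086656-73086955, minus strand.
AW112010: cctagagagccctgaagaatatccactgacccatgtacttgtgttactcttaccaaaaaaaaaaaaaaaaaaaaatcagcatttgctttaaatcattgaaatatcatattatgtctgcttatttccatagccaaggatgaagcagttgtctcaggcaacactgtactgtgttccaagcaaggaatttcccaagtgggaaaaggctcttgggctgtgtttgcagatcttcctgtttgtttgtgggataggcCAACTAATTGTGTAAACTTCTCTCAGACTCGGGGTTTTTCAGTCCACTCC
1810008I18Rik, first start: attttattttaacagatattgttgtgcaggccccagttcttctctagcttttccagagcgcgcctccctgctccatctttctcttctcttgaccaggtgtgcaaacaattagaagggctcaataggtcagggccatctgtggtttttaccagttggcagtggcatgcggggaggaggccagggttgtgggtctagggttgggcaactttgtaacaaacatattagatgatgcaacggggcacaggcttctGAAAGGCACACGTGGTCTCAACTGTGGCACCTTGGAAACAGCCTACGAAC
1810008I18Rik, second start: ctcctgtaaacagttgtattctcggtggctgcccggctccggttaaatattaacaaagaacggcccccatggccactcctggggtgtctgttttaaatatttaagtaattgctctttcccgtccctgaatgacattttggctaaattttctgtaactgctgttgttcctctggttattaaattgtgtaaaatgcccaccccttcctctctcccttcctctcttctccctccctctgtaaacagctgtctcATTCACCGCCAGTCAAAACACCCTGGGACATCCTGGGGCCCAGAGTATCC
1500017E21Rik: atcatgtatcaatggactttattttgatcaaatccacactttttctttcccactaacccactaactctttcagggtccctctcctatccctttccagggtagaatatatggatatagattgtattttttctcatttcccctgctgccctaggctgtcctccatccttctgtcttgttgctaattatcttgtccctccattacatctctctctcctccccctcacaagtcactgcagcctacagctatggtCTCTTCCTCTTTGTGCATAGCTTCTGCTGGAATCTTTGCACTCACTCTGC
A330049N07Rik: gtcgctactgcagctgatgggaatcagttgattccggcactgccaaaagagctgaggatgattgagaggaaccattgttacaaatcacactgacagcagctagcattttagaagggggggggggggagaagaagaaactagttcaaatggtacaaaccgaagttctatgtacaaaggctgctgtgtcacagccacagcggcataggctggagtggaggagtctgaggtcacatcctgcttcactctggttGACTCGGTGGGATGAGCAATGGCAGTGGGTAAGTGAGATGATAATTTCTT
None of these windows holds TTCNNNGAA or the same letters with an additional base in the gap. Both motifs read the same on either strand. Of the 115 genes, 58 had 65 RefSeq windows, and TTCNNNGAA stood in 1 of them (1.54%), that of 1810058I24Rik, against 8.30% of all 32851 windows. The form with the wider gap stood in 5 (7.69%) against 6.95% of all windows. These counts describe the letters of windows of 300 bases alone.

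AW112010, a lncRNA known to be induced by inflammatory signals in mouse immune cells and from which a protein can be translated, was called higher in knockout livers of both sexes. It lies on chromosome 19, 11122102 to 11125056 on mm9, the build of the deposited coordinates (NR_102366). It measured 23.1 and 14.8 FPKM in male controls and 64.8 and 43.3 in male knockouts. In females it measured 27.4 and 28.4 FPKM in controls and 41.95 and 73.7 in knockouts. All 4 knockout libraries lay above all 4 control libraries. The group means were 18.9 ± 5.85 and 54.1 ± 15.2 FPKM in control and male knockouts, and 27.9 ± 0.699 and 57.8 ± 22.5 FPKM in control and female knockouts (SD, n = 2). In the authors' deposited table it is 2.80-fold higher in male knockouts (edgeR, adjusted p = 0.00017) and 1.88-fold higher in female knockouts (adjusted p = 0.021). Averaged over both sexes, voom gave a log2 change of 1.12 ± 0.24 (SE, adjusted p = 0.040), and limma on log2(FPKM + 1) gave 1.22 ± 0.24 (SE, adjusted p = 0.11). Leaving out single libraries kept the averaged voom change between 0.92 and 1.40 on the log2 scale, and 2 of the 8 such fits called it. The female change alone was 1.27 without the deeper knockout library and 0.45 without the shallower, and the male change ran from 1.04 without the deeper knockout library to 1.93 without the deeper control library.

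Immune cell markers were measured beside it. Of 6 Kupffer cell markers listed, 1 (C1qa) is called higher in male knockouts in the authors' deposited table, by 1.79-fold (edgeR, adjusted p = 0.029), and 0 are called in females. Summed over the 6, the markers measured 30.8 and 31.4 FPKM in male controls and 46.2 and 47.5 in male knockouts, and 42.2 and 40.0 FPKM in female controls against 42.7 and 55.3 in female knockouts. The 6 lymphocyte markers, all with reads, summed to 0.663 and 0.802 FPKM in male controls, 1.39 and 1.64 in male knockouts, 2.20 and 1.69 in female controls and 1.52 and 1.57 in female knockouts, with 0 of 6 called in either sex. On the FPKM scale the Kupffer sum did not overlap between genotypes in either sex. Of genes with a mean FPKM of at least 2, 18.1% in males and 46.9% in females were likewise higher in knockouts without overlap. The median log2 ratio of the 6 markers in the authors' deposited table is 0.589 in males and 0.150 in females. In females the deeper control sum of 42.2 FPKM lay close to the deeper knockout sum of 42.7. The part of the Kupffer sum in the AW112010 result was not tested, and in bulk liver more cells of a type and more RNA per cell cannot be told apart.

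1810008I18Rik, a lncRNA on chromosome 7, 72948938 to 72951109 on mm9 (NR_045301), was lower in knockout livers of both sexes with little spread between pools, and overlaps no other listed gene. Control males measured 35.9 and 28.7 FPKM and male knockouts 19.5 and 19.4. Control females measured 32.4 and 29.8 FPKM and female knockouts 20.5 and 21.2. All 4 control libraries lay above all 4 knockout libraries. In the authors' deposited table it is 1.64-fold lower in female knockouts (edgeR, adjusted p = 0.0097) and 1.68-fold lower in male knockouts, where the adjusted p of 0.10 misses the threshold. By voom the male change of -0.78 ± 0.15 (log2, SE) passed with an adjusted p of 0.049, and the female change of -0.72 ± 0.15 did not (adjusted p = 0.12). Averaged over both sexes it passed in both refits, with a log2 change of -0.75 ± 0.11 by voom (SE, adjusted p = 0.0095) and -0.63 ± 0.084 by limma on log2(FPKM + 1) (SE, adjusted p = 0.048). Its nearest neighbours with at least 2 FPKM were not called. In the authors' deposited table Tm2d3, 102 kb before it, has ratios of 0.905 in males and 1.0004 in females, and Pcsk6, 55.9 kb after it, has 1.26 and 1.31.

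1500017E21Rik, named Hectd2os in RefSeq for its place opposite the ubiquitin ligase gene Hectd2 (chromosome 19, 36693908 to 36763969 on mm9, NR_033510), was called lower in both sexes. It measured 9.58 and 21.4 FPKM in male controls and 5.39 and 8.96 in male knockouts, and 13.2 and 24.2 FPKM in female controls against 10.7 and 9.75 in female knockouts. The groups did not overlap within either sex, but the shallower control library was the higher by far in both sexes, and the lowest control male library lay close to the highest knockout male library. The authors' deposited table has it 2.07-fold lower in males (edgeR, adjusted p = 0.048) and 2.02-fold lower in females (adjusted p = 0.014). The average over both sexes was -0.96 ± 0.26 on the log2 scale by voom (SE, adjusted p = 0.096). Its male voom change was -1.52 without the deeper control library and -0.55 without the shallower, and its female change -1.42 and -0.47. Hectd2 itself averaged only 0.394 FPKM and is uncalled in both sexes in the authors' deposited table, with ratios of 1.04 in males and 1.83 in females.

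A330049N07Rik, a lncRNA of chromosome 10, 72436051 to 72549453 on mm9 (NR_040646), was called lower in females. It measured 7.10 and 14.7 FPKM in female controls and 5.39 and 4.18 in female knockouts, and 7.69 and 8.04 FPKM in male controls against 7.77 and 3.78 in male knockouts. The female groups did not overlap but the control pools lay far apart, and in males the groups overlapped. The ratio in the authors' deposited table is 2.50-fold lower in females (edgeR, adjusted p = 0.0021) and 1.33-fold lower in males (adjusted p = 1). The difference between these effects, tested as an interaction with limma on log2(FPKM + 1), was 0.52 ± 0.55 (SE, adjusted p = 0.86). The female voom change was -1.79 without the deeper control library and -0.67 without the shallower.

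Gm1821 (chromosome 14, 46703702 to 46704632 on mm9, NR_002875) is a pseudogene of ubiquitin B, Ubb-ps in RefSeq, so its reads can be shared with the parent gene. Knockout females measured 22.2 and 20.4 FPKM and female controls 12.6 and 11.7, with little spread between pools. In males the pools lay far apart in both groups, at 9.17 and 19.3 FPKM in controls and 9.29 and 24.4 in knockouts. The authors' deposited table has it 1.59-fold higher in females (edgeR, adjusted p = 0.027) and 1.24-fold higher in males (adjusted p = 1). Ubb stayed between 52.1 and 65.4 FPKM in all 8 libraries, with a deposited ratio of 0.942 in females in the authors' deposited table.

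6430706D22Rik (chromosome 1, 90159688 to 90165983 on mm9, NR_040291) is now part of Hjurp in RefSeq, the gene of the chaperone that loads the centromeric histone CENP-A. It measured 9.70 and 5.37 FPKM in female controls and 3.49 and 4.05 in female knockouts, but 3.63 and 4.84 FPKM in male controls and 5.47 and 5.49 in male knockouts. The groups were separate in both sexes, in opposite directions. In the authors' deposited table it is 2.20-fold lower in female knockouts (edgeR, adjusted p = 0.00078) and 1.34-fold higher in male knockouts (adjusted p = 0.92). The female voom change was -0.70 without the deeper control library and -1.48 without the shallower. Hjurp and A730008H23Rik, listed at the same place, gave 2.15-fold and 2.31-fold lower values in female knockouts in the authors' deposited table (adjusted p = 0.0012 and 0.00029), and the reads of 6430706D22Rik equalled 80.9% of those of Hjurp over the 8 libraries. These rows are therefore not separate measurements. The nearest gene before 6430706D22Rik with at least 2 FPKM was Ugt1a9, a glucuronosyltransferase gene 43.1 kb away. In the authors' deposited table Ugt1a9 is 2.37-fold lower in female knockouts (edgeR, adjusted p = 5.4e-05). Its male ratio there is 0.658, uncalled, whereas 6430706D22Rik is higher in male knockouts. Spp2, the nearest such gene after 6430706D22Rik, has uncalled ratios of 0.703 in males and 0.838 in females in the authors' deposited table.

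**Figure D2:**
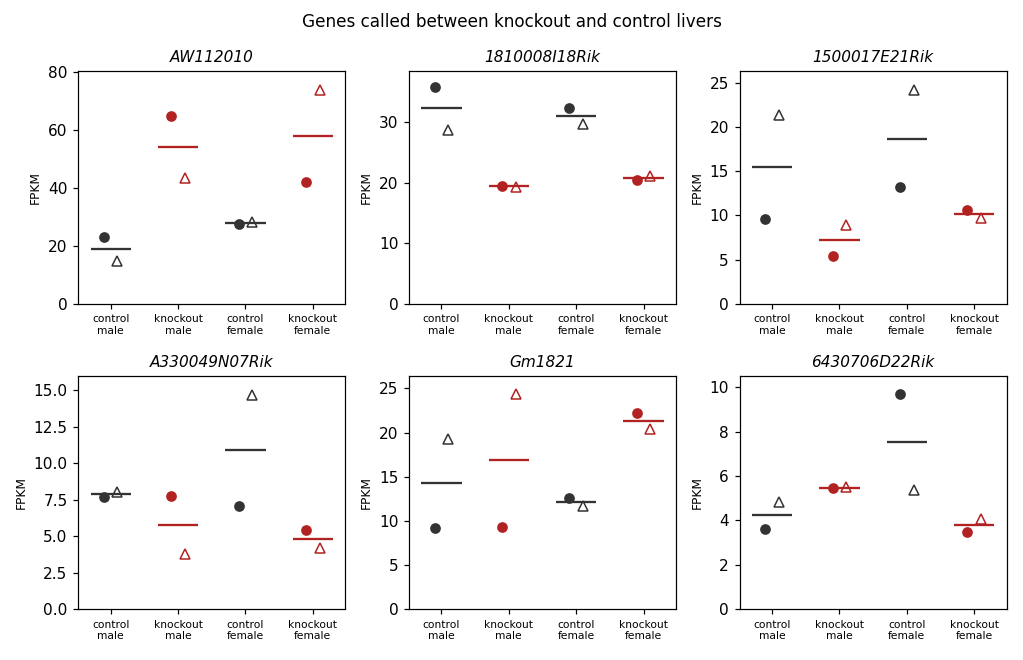
FPKM (linear axis from 0) of the 6 genes called between knockout and control livers in at least 1 sex, in the 4 groups. Filled circles are the deeper and open triangles the shallower library of a group, black for controls and red for knockouts, and lines are group means. AW112010 and 1810008I18Rik separate all control from all knockout libraries. Apart from 1810008I18Rik, each gene, AW112010 included, has pools far apart in at least 1 group.

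Over all 115 genes the changes were small. In the authors' deposited table the median log2 ratio of knockout to control was -0.025 in males, against -0.031 for all genes of this level, and -0.077 in females, against 0.0087. The female direction depends on scale, since the difference of log2(FPKM + 1) has a median of 0.056. Over all genes of this level, the ratio of the authors' deposited table minus the plain ratio of mean FPKM has a median (log2) of -0.14 in the female knockout comparison and in that of control sexes, and of 0.017 and 0.024 in the male knockout and knockout sex comparisons. By the ratios of the authors' deposited table, 104 of the 115 genes stayed within 1.5-fold in males (90.4%, against 90.9% of genes of this level) and 105 in females (91.3%, against 93.8%). Beyond 2-fold lay 2 genes in males and 4 in females. The libraries of the genotypes did not overlap for 39 genes in males (33.9%, against 39.7% of genes of this level) and for 54 in females (47.0%, against 54.8%). On this plain FPKM scale 15 of the 39 were higher and 24 lower in male knockouts. These are 13% and 20.9% of the 115, against 18.1% and 21.6% of genes of this level. In female knockouts 31 of the 54 were higher and 23 lower. These are 27% and 20% of the 115, against 46.9% and 7.84% of genes of this level.

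The ratios of the sexes had the same sign for 67 of the 115 genes in the authors' deposited table (58.3%, against 64.6% of genes of this level). In both sexes and the same direction, 15 genes had libraries that did not overlap (13.04%, against 16.2%). The 8 lower ones were 1810008I18Rik, 1500017E21Rik, Snhg1, Gm20752, Gm9855, Gm16548, Gm16157 and Pisd-ps2. The 7 higher ones were AW112010, Malat1, 4930470H14Rik, Gm8883, 1810019D21Rik, Terc and Gm5512. Gm20752, a lncRNA, came nearest to a call after those above, with 3.96 and 5.02 FPKM in male controls and 3.17 and 2.05 in male knockouts, and 2.97 and 6.01 in female controls against 2.83 and 1.89 in female knockouts. Its ratios in the authors' deposited table are 1.67-fold lower in males (edgeR, adjusted p = 0.20) and 2.07-fold lower in females (adjusted p = 0.056). The interaction of genotype and sex was called for 0 of the 115 genes by limma on log2(FPKM + 1), with 4 at an unadjusted p under 0.05 (6.03% of genes of this level) and a background of calls of 0.0147%, and for 0 by voom, with 6 (4.82% of genes of this level) and a background of calls of 0%.

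**Figure D3:**
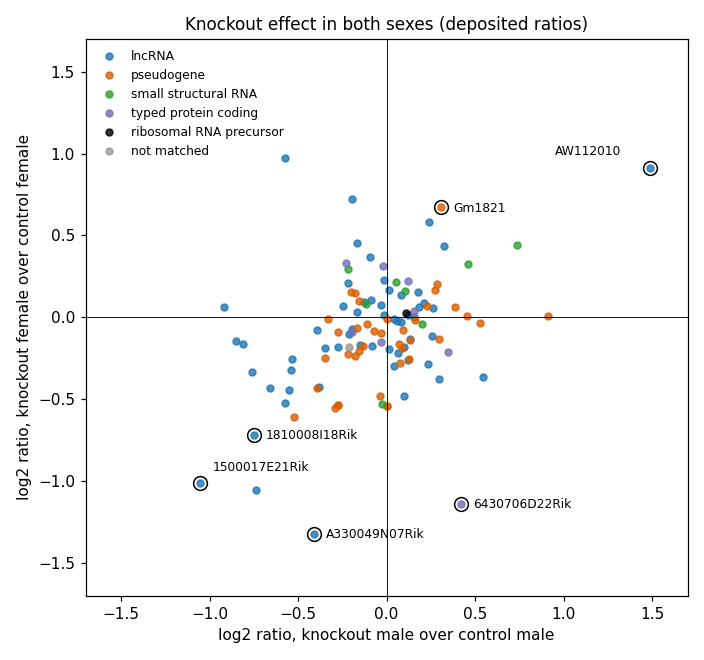
Log2 ratio of knockout to control in males (x axis) and females (y axis) from the authors' deposited table, for 115 noncoding RNA genes coloured by RefSeq class. Rings mark genes called in at least 1 sex. Most points lie within 0.5 of 0 in both directions, AW112010 stands alone at the upper right, and 6430706D22Rik is the ringed gene with opposite signs.

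Of a list of nuclear and architectural lncRNAs, 3 genes are in the set under the symbols listed, Malat1, Neat1 and Tug1. Of these, 0 are called by genotype in either sex in the authors' deposited table. Norad, Oip5os1 and Lincpint, also on the list, are in the set under other symbols and are likewise uncalled. Malat1, which gathers in nuclear speckles, was the most abundant lncRNA, at 377 and 373 FPKM in male controls, 423 and 403 in male knockouts, 349 and 355 in female controls and 383 and 392 in female knockouts. Every knockout library lay above both controls of its sex, yet the ratios in the authors' deposited table are 1.11 in males and 1.0002 in females (edgeR, adjusted p = 1 in each). Neat1, the scaffold of paraspeckles, averaged 20.4 ± 4.21 FPKM in control and 24.7 ± 6.83 in male knockouts, and 18.2 ± 3.66 in control and 27.1 ± 0.519 in female knockouts (SD, n = 2). Its ratio of 1.35 in females in the authors' deposited table had an adjusted edgeR p of 0.71. The 12 listed paraspeckle proteins averaged at least 2 FPKM over the 4 groups, and 0 are called in either sex in the authors' deposited table. Tug1, a lncRNA known to bind chromatin regulators, averaged 4.23 FPKM in control and 3.26 in male knockouts, and 4.28 and 4.13 in females. 2900097C17Rik, RefSeq's Norad, which binds Pumilio proteins, averaged 15.7 and 14.4 FPKM in control and male knockouts and 14.9 and 17.7 in females. 1700020I14Rik, or Oip5os1, the Cyrano transcript that directs decay of a microRNA, was among the steadiest of all, between 8.07 and 9.36 FPKM over the 8 libraries. Lincpint, a p53-induced lncRNA, averaged 2.66 and 2.83 FPKM in control and male knockouts and 3.04 and 3.58 in females.

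The snoRNA host genes, whose introns release the small nucleolar RNAs that guide modification of ribosomal RNA, had 6 of 19 listed genes in the set. None of the 6 is called by genotype in either sex in the authors' deposited table, although Snhg1 and Snhg6 were lower in male knockouts with libraries that did not overlap. Snhg1 measured 5.62 and 5.77 FPKM in male controls and 3.78 and 3.49 in male knockouts, and 4.24 and 5.31 in female controls against 3.66 and 3.93 in female knockouts. Its ratio in males is 1.58-fold lower in the authors' deposited table (edgeR, adjusted p = 0.70), and that of Snhg6 is 1.80-fold lower (adjusted p = 0.35). Gas5, Snhg8 and Snhg12 had male ratios of 1.06, 0.863 and 1.17 in the authors' deposited table, and Snhg3 had 0.873 in males and 1.65 in females. Of the 115 genes, 7 overlap listed snoRNA genes when whole gene spans with introns are compared. Snhg1 held 406 reads over the 8 libraries, and Snord22 within its span held 2286. Whether reads of small RNAs enter the values of their hosts was not tested. The snoRNA particle proteins, 10 listed, had 0 calls in the authors' deposited table, as did the 10 nonsense-mediated decay factors, which degrade many such host transcripts. Of 8 imprinted noncoding genes looked for, 0 reached the set.

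The 8 small structural RNAs include the highest genes of the set, Rpph1 and Rmrp, and 0 of the 8 are called by genotype in the authors' deposited table. Rpph1, the RNA of RNase P, which trims transfer RNA precursors, averaged 2066 ± 319 FPKM in control and 2108 ± 183 in male knockouts, and 1851 ± 508 in control and 2358 ± 101.1 in female knockouts (SD, n = 2). Rmrp, the RNA of the related RNase MRP, averaged 1273 ± 171, 1154 ± 147, 1212 ± 221 and 1408 ± 52.8 FPKM in the same order. Rprl3, a gene like that of RNase P RNA, varied more between pools, from 165 to 569 FPKM. Rn45s, the precursor of the ribosomal RNAs that the depletion step removes, ranged from 885 to 1385 FPKM. For all 4 of these genes the shallower control library was the lowest of the female libraries. Terc, the template RNA of telomerase, measured 3.80 and 2.03 FPKM in male controls and 5.64 and 5.72 in male knockouts, and 3.85 and 2.34 in female controls against 5.13 and 4.60 in female knockouts. All 4 knockout libraries exceeded all controls. The ratios in the authors' deposited table are 1.67 in males (edgeR, adjusted p = 0.51) and 1.36 in females (adjusted p = 1), and voom gave an average of 0.57 ± 0.21 on the log2 scale (SE, adjusted p = 0.21). Vaultrc5, a vault particle RNA, and Rnu11 and Rnu12, RNAs of the minor spliceosome, averaged 37.7, 8.82 and 12.5 FPKM over the groups and are uncalled in the authors' deposited table, as is Rprl2. The 11 proteins of RNase P and RNase MRP and the 7 of the 7SK particle had 0 calls.

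Pseudogenes made up 39 of the 115 genes, and many of their values were those of another gene. Of the 39, 22 overlap another listed gene with reads, and 47 of all 115 do. For 12, all pseudogenes, the deposited coordinates lie on another chromosome than the RefSeq position, at the place of a protein-coding gene. Gm15772 and the ribosomal protein gene Rpl26 held 8352 reads each over the 8 libraries, and Gm6644 and the aldo-keto reductase gene Akr1b3 held 1954 each. Oaz1-ps held 99.1% as many as Oaz1, the ornithine decarboxylase inhibitor gene, Gm12191 99.9% as many as Rpl30, and Gm13363 94.5% as many as the phosphatase gene Ptp4a1. In 11 pairs the reads agreed within 10%, Pisd-ps1 and Pisd-ps3 included, which are both in the set. The values of these pseudogenes, several of them among the highest of the set, are thus not separable from the overlapping gene. Without the 47 overlapping genes, the calls of the authors' deposited table fall from 2 to 1 in males and from 6 to 4 in females. The calls lost are 1500017E21Rik, which overlaps Hectd2, and 6430706D22Rik, which overlaps Hjurp. Overlap here is of whole gene spans and need not mean shared reads. Over the 8 libraries 1500017E21Rik held 5911 reads against 349 in Hectd2, and 6430706D22Rik held 3964 against 4900 in Hjurp.

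**Figure D4:**
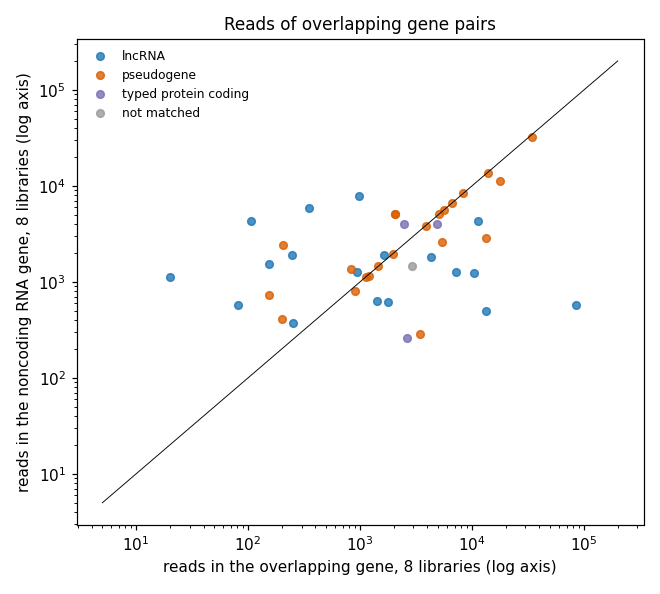
Reads over 8 libraries in a noncoding RNA gene (y axis) and in a listed gene that overlaps it (x axis), both on log axes, for 44 pairs without small RNA genes. The line marks equal reads, and colours give the RefSeq class. In 11 pairs the reads agree within 10%, and these points lie on the line.

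Of the other genes now typed as protein coding, 1810058I24Rik was the highest at 21.7 FPKM. 1500011K16Rik, now Mtln, and 2310009A05Rik, now Pigbos1, encode small mitochondrial proteins and averaged 3.84 and 3.22 FPKM, with ratios between 0.986 and 1.25 in both sexes in the authors' deposited table. None of the 8 other than 6430706D22Rik was called by genotype.

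Few of the genes differed between the sexes. The authors' deposited table calls 4 of the 115 genes between male controls and female controls, 3.48% against 3.01% of all genes of this level. The call higher in males was 1810064F22Rik, against 1.45% of genes of this level, and those lower in males were 9030619P08Rik, Gdap10 and 6430706D22Rik, against 1.56%. Between male knockouts and female knockouts it calls 3, 2.61% against 2.13%, with Mug-ps1 and Gm10319 higher in males (background 0.998%) and 9030619P08Rik lower (background 1.13%). Limma on log2(FPKM + 1) called 0 of the 115 in either comparison, where it called 0.602% of genes of this level in controls and 0.0881% in knockouts, and voom called 0, against 1.17% and 0.606%. At an unadjusted p under 0.05 the former gave 17 in controls and 6 in knockouts, against 18.04% and 5.71% of genes of this level, and voom 15 and 8, against 13.2% and 9.23%. The 4 comparisons share libraries, so these counts are not independent. In both comparisons of sexes the code of the library titles and sex cannot be told apart.

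1810064F22Rik, a lncRNA of chromosome 9 (22011230 to 22018304 on mm9, NR_027981), measured 6.56 and 6.38 FPKM in male controls and 1.43 and 1.502 in female controls. The authors' deposited table has it 4.09-fold higher in male controls (edgeR, adjusted p = 6.9e-15). In female knockouts it measured 1.46 and 1.90 FPKM, as in female controls, and in male knockouts the pools parted, at 1.73 and 5.21. The deeper knockout male library thus lay at the level of the females and the shallower near the male controls. The ratio of knockout to male controls, 1.89-fold lower, is uncalled in the authors' deposited table (edgeR, adjusted p = 0.38), as is the sex ratio of 2.07 in knockouts (adjusted p = 0.36). It reached the minimum of 2 FPKM through the males alone, so its sex difference is tied to the choice of genes.

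9030619P08Rik, a transcribed pseudogene on chromosome 15 (75258036 to 75262259 on mm9, NR_108041), was lower in males in both genotypes and had the widest range over the libraries, 13.8-fold. It measured 6.48 and 1.88 FPKM in male controls, 11.3 and 5.97 in male knockouts, 25.997 and 13.7 in female controls and 24.05 and 20.02 in female knockouts. All 4 male libraries lay below all 4 female libraries. In the authors' deposited table it is 4.60-fold lower in male controls (edgeR, adjusted p = 7.9e-06) and 2.48-fold lower in male knockouts than in female knockouts (adjusted p = 0.0013). The male ratio of knockout to control, 1.88 in the authors' deposited table, is uncalled (edgeR, adjusted p = 0.59), and the male libraries overlapped. The voom change between control sexes was -3.52 on the log2 scale without the deeper male library and -1.64 without the shallower, and -1.55 without the deeper female library. Between knockout sexes it was -1.91 without the deeper male library and -0.88 without the shallower.

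Gdap10, a lncRNA within the region of the gene of the NAD-making enzyme Nampt, measured 1.63 and 0.809 FPKM in male controls and 2.65 and 3.17 in female controls, and 1.40 and 2.52 in male knockouts against 2.04 and 2.90 in female knockouts. It is 2.31-fold lower in male controls in the authors' deposited table (edgeR, adjusted p = 0.0034), whereas the knockout groups overlapped. Its voom change between control sexes was -1.98 on the log2 scale without the deeper control male library and -0.82 without the shallower. It too passed the minimum of 2 FPKM through the females. Mug-ps1 and Gm10319, pseudogenes 25.1 kb apart in the cluster of the murinoglobulin protease inhibitors on chromosome 6, moved together. Mug-ps1 measured 11.9 and 15.9 FPKM in male controls, 12.7 and 13.7 in male knockouts, 7.78 and 10.4 in female controls and 6.80 and 7.52 in female knockouts. Gm10319 measured 12.9 and 18.5, 11.8 and 13.3, 8.19 and 10.6, and 6.77 and 7.39 FPKM in the same order. Male libraries lay above female libraries for both genes and both genotypes. The sex ratio of Mug-ps1 in knockouts is 1.88 in the authors' deposited table (edgeR, adjusted p = 0.00068) and that of Gm10319 1.80 (adjusted p = 0.0034). In controls the same ratios are 1.37 and 1.49 in the authors' deposited table, uncalled, and no interaction was called for either gene, with limma differences of 0.24 ± 0.25 and 0.067 ± 0.27 (log2, SE, adjusted p = 0.86 and 0.96). Mug1, a gene of the same family at 196 to 588 FPKM, has sex ratios of 1.49 in controls and 1.49 in knockouts in the authors' deposited table, both uncalled. Mug2, 50.7 kb from Gm10319, has sex ratios of 0.947 in controls and 1.24 in knockouts in the authors' deposited table, also uncalled.

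**Figure D5:**
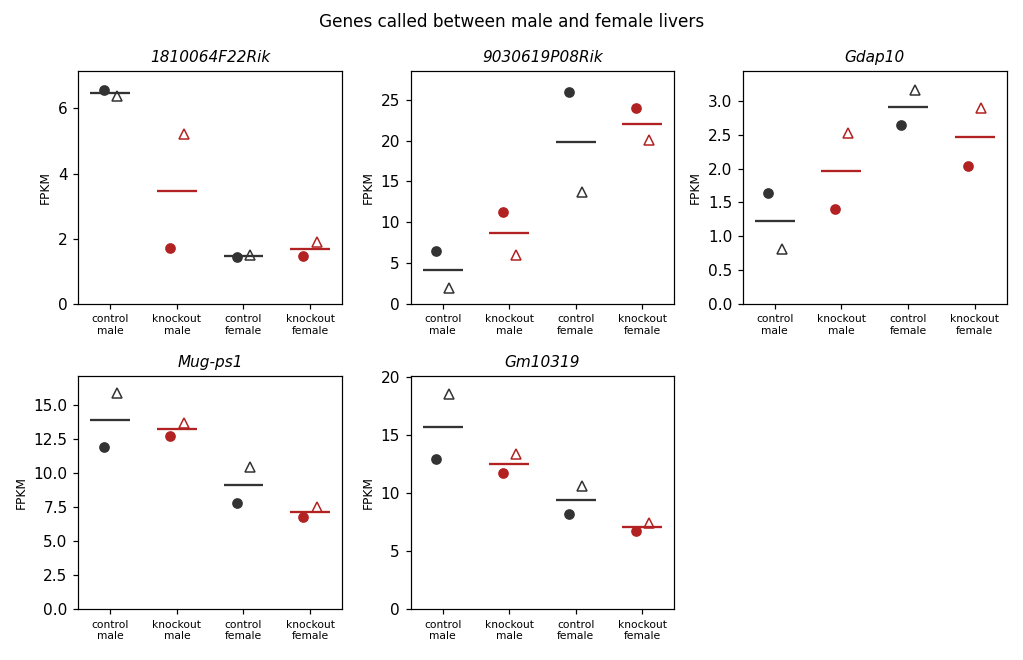
FPKM (linear axis from 0) of 5 genes called between male and female livers in controls or in knockouts, drawn as in the plot of genes called by genotype: filled circles are the deeper and open triangles the shallower library, black for controls and red for knockouts, and lines are group means. 1810064F22Rik is near 6.5 FPKM in both control male libraries and splits between 1.73 and 5.21 in male knockouts, and all male libraries of 9030619P08Rik lie below the female ones.

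Markers of other cells that moved with genotype are given here for the whole set. Of 5 bile duct markers, 1 (Spp1, osteopontin) is called higher in male knockouts in the authors' deposited table, by 9.06-fold (edgeR, adjusted p = 3.8e-15), and the 5 summed to 2.75 and 6.85 FPKM in male controls and 37.7 and 28.9 in male knockouts. Spp1 alone made 37.1 and 28.2 of these, and the keratin genes Krt19 and Krt7 and the duct factor Sox9 have uncalled male ratios of 0.734, 0.868 and 0.857 in the authors' deposited table. Of 12 pancreas markers, 1 (Cela1, an elastase gene) is called lower in male knockouts in the authors' deposited table, by 2.75-fold (edgeR, adjusted p = 8.6e-05), and the 12 summed to 9.38 and 11.2 FPKM in male controls and 3.23 and 7.59 in male knockouts. Cela1 alone made 9.15 and 11.2 of these in controls and 2.45 and 4.87 in knockouts. The other pancreas markers are uncalled and did not fall with it. The median male log2 ratio of the list is 4.05, from genes near 0 FPKM. Ctrb1, the highest of them in male knockouts, averaged 0.451 FPKM there and 0 in male controls. Of 6 hepatocyte markers, 1 (Serpina1a) is called lower in male knockouts in the authors' deposited table, by 1.88-fold (adjusted p = 0.014), and the 6 summed to 19076 and 14407 FPKM in male controls and 13173 and 13656 in male knockouts. In females 0 markers of any list are called. The part of these changes in the values above was not tested.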

How the data were processed

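Liver RNA of 8 libraries in 4 groups was analysed from 1 deposited table. The authors used TopHat2, featureCounts and edgeR with the mm9 build, per the submitters' processing notes; the sources used here give neither versions nor the gene annotation. The authors deposited group mean FPKM, a normalized ratio per comparison, and edgeR p-values raw and adjusted, per the file headers. A gene was called at an adjusted p under 0.05 there. Reads of single libraries were solved from the decimals of the mean FPKM for 18002 genes, reproducing deposited values within 2.2e-11, and the solver was tested on simulated data. Refits used limma 3.58.1 in R 4.3.3: log2(FPKM + 1) with trend, and voom on genes with at least 10 reads in at least 2 libraries, scaled by the median of ratios, with 4 residual degrees of freedom. Classes came from RefSeq (all but 2 of 115 genes matched). The members, lists and tests were chosen with earlier results of these data known. Named are genes called in any comparison, the highest by level, those on role lists, those at the minimum, and those with opposite effects by sex. Alternatives were other thresholds, other scales and leaving out libraries. Values in kb are distances between listed genes.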

Additional observations from a re-analysis of the deposited data

Results flagged for a closer look

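Both results below were set apart because every knockout library lay on 1 side of the controls in males and on the other side in females. For 6430706D22Rik the male change minus the female change was 1.11 ± 0.35 on the log2 scale by limma on log2(FPKM + 1) (SE, adjusted p = 0.84) and 1.55 ± 0.33 by voom (adjusted p = 0.52). For Atp6v0c-ps2, whose reads are those of Atp6v0c, it was -0.50 ± 0.14 by limma on log2(FPKM + 1) (SE, adjusted p = 0.84) and -0.36 ± 0.15 by voom (adjusted p = 0.95). Neither passed the threshold, and the cause was not tested. With 2 libraries in a group, no library can be tested for standing apart from its group.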

How the results depend on the processing

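Counts of called genes depended on the test. Against the authors' 2 calls in males and 6 in females, limma on log2(FPKM + 1) called 0 and 0, voom 1 and 0, voom with library totals 2 and 0, an adjusted p under 0.01 left 1 and 3, and a 2-fold minimum 2 and 3. A mean FPKM of at least 1 gave 7 and 7. For the sexes, limma and voom called 0 of the 4 in controls and 0 of the 3 in knockouts; in controls a mean FPKM of at least 5 left 2 and at least 1 gave 9, and in knockouts a mean of at least 1 gave 8 and a 2-fold minimum left 1. Without overlapping genes, an alternative chosen after seeing the data, 1 call remained in males, 4 in females, 2 between control sexes and 3 between knockout sexes. Leaving out each library in voom gave 0 to 2 calls in males, 0 to 1 in females, 0 to 1 for either comparison of sexes and 0 to 5 for genotype averaged over both sexes (main value 2, and 1 by limma on log2(FPKM + 1)); such a fit assumes that the lone library left varies like the other groups. The interaction gave 0 calls in every fit. For the genes called by the authors, 150 refitted values kept the direction and 145 of them missed the threshold; the cause was not tested. No paired analysis was possible because the columns carry no pool numbers. Pools of unstated size, 2 in a group, limit what can be detected.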
